A study of Homo sapiens with 8 samples.

Results

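The PAF1 complex (PAF1C) was followed through the genes of 5 of its subunits, PAF1, CTR9, CDC73, LEO1 and RTF1. The data were an m6A comparison of CSTF2-knockout and parental liver cancer cells. The genes were taken by name: every entry of the authors' deposited table that carried the name of a subunit was used. This gave 5 of the 10447 gene values of HUH7 and 13 of the 9516 peak values of PLC/PRF/5. The complex was selected on log2 fold changes of this same table: the values of both lines were known when it was chosen, and CTR9 and CDC73 had already stood out by size in HUH7. All values are therefore given as a description, with no test.

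Both HUH7 and PLC/PRF/5 are established lines of human hepatocellular carcinoma. MeRIP-seq enriches RNA fragments that carry N6-methyladenosine (m6A), by immunoprecipitation (IP), and sequences them beside an input; 8 libraries were made in this way. In HUH7 these were an IP and an input library of cells edited with CRISPR-Cas9 to remove CSTF2, and an IP and an input library of parental cells. PLC/PRF/5 had the same 4 libraries, again CSTF2 knockout and parental. CSTF2 encodes an RNA-binding subunit of the cleavage stimulation factor, which acts when the 3′ end of an mRNA is formed. Whether a knockout line was 1 clone or a pool is not given in the sources used here. Every group held 1 library, so no value below has a replicate or an error, and sequencing depth is unknown.

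PAF1C travels with RNA polymerase II along the gene body. It is known to help the polymerase elongate, to promote ubiquitination of histone H2B and the methylation of histone H3 that depends on it, and to take part in recruiting factors that form mRNA 3′ ends. PAF1, CTR9, LEO1 and CDC73 belong to the stable core, and RTF1 is held more loosely in human cells. SKIC8 (older name WDR61) is a further subunit of the human complex, which it shares with the cytoplasmic SKI complex.

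The values are log2 fold changes between control and knockout, as deposited. How IP and input were combined in them is not stated, and the fold differences given below only restate them on a linear scale. Which genotype is the numerator is not stated, so "positive" and "negative" keep the deposited sign and name neither genotype as the higher one. The genome build of the processing notes is hg38, and the gene positions below are those of RefSeq on GRCh38.p14, not positions of peaks. As a check of the cell type, 9 of 12 hepatocyte and liver tumour genes were listed in HUH7 and 8 in PLC/PRF/5, with TTR and AFP listed in neither. Being listed is not a level of expression.

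In HUH7 the 5 subunits went both ways. CDC73 and RTF1 were positive, and LEO1, PAF1 and CTR9 were negative, with CTR9 the farthest from 0. Over all HUH7 genes, 60.8% were positive and 39.1% negative. A size of at least 1 on the log2 scale was seen for 3 of the 5 subunits, against 36.9% of all HUH7 genes and 27.8% of those with unrepeated values (explained below). The 2 positive subunits past this limit stand beside 22.2% of all genes, and the 1 negative subunit beside 14.6%. The median of the subunits was -0.45, against 0.20 over all genes of the column.

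CTR9 is the scaffold subunit, built of tetratricopeptide repeats, on which the core of the complex is assembled (chromosome 11, 10751246 to 10779746, plus strand). Its HUH7 log2 fold change was -2.17 in the authors' deposited table, a 4.51-fold difference. Of all HUH7 genes, 9.60% lay below it and 19.99% were larger in size; among genes with unrepeated values, 1.96% lay below it. It was the lowest of the 5 subunits and the only one of them past 2 in size.

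PAF1, the subunit that gives the complex its name, lies on chromosome 19 (39385629 to 39391106, minus strand). Its HUH7 value was -0.67 in the authors' deposited table, a 1.59-fold difference, with 18.8% of all genes below it. LEO1, which pairs with PAF1 in the complex, lies on chromosome 15 (51938025 to 51971778, minus strand). Its HUH7 value was -0.45 in the authors' deposited table, a 1.36-fold difference, with 22.8% of genes below it. LEO1 was above PAF1 by 0.22 on the log2 scale, and without replicates it cannot be said whether such a step is more than the spread between libraries.

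CDC73 encodes parafibromin, a tumour suppressor first known from parathyroid tumours (chromosome 1, 193122031 to 193254815). Its HUH7 value was 1.28 in the authors' deposited table, a 2.42-fold difference, with 82.1% of genes below it. RTF1 carries the domain that stimulates H2B ubiquitination (chromosome 15, 41417095 to 41483563, plus strand). Its HUH7 value was 1.20 in the authors' deposited table, a 2.30-fold difference, with 81.05% of genes below it. CDC73 exceeded RTF1 by 0.08 on the log2 scale, the smallest step between neighbours in the order of the subunits.

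From lowest to highest the HUH7 order was therefore CTR9, PAF1, LEO1, RTF1 and CDC73, over a distance of 3.45 on the log2 scale. The quartiles of all HUH7 genes were -0.36 and 0.87. Of the subunits, 3 were below these bounds, 2 were above and 0 were between them. Many extreme HUH7 values were each shared by 10 or more genes (here called repeated values, 1315 genes in all), and none of the 5 subunits held one. RTF1 and LEO1 lie on the same chromosome with gene starts 10.52 Mb apart, and their HUH7 values had opposite signs.

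**Figure D1:**
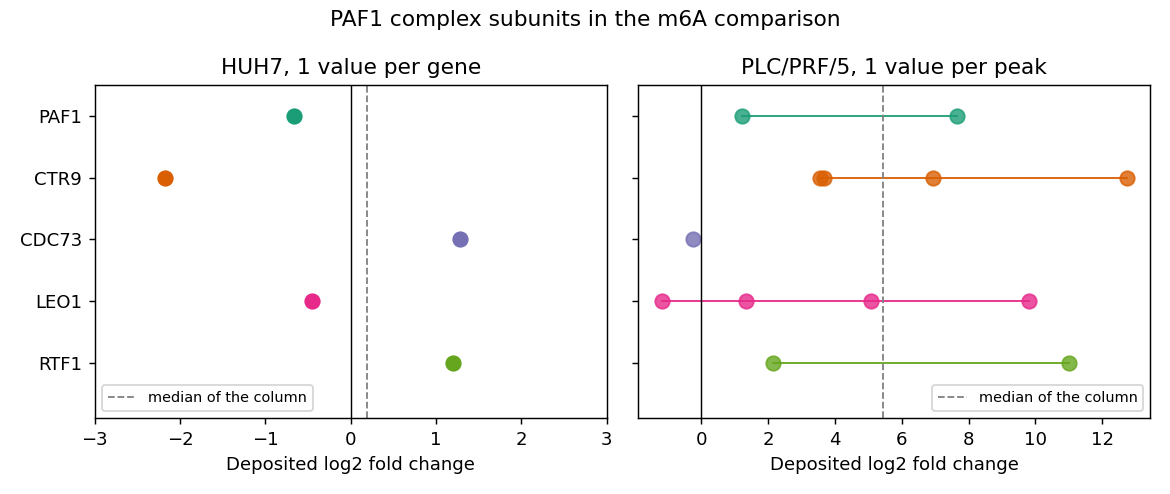
Deposited log2 fold changes of the 5 PAF1 complex subunits, with 1 point per gene in HUH7 (left) and 1 point per peak in PLC/PRF/5 (right, a line joining the peaks of a gene); the x axes differ in range, and dashed lines mark the median of each whole column (0.20 and 5.44). HUH7 values run from -2.17 for CTR9 to 1.28 for CDC73, and PLC/PRF/5 peaks from -1.18 for LEO1 to 12.74 for CTR9.

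In PLC/PRF/5 every subunit was listed as well, with 1 to 4 peaks each. Of the 13 peaks, 11 were positive and 2 negative, against 86.0% positive and 14.0% negative over all peaks. With the median of the column subtracted, 5 were positive and 8 negative, so the signs depend on the centring, which is not stated. A size of at least 1 was seen for 12 of the 13, against 87.1% of all peaks. The median of the 13 peaks was 3.67, and that of all peaks 5.44. Both counts are close to the shares of the column.

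CTR9 had 4 PLC/PRF/5 peaks, at 3.57, 3.67, 6.95 and 12.74 in the authors' deposited table. All 4 were positive, 2 of them lay within 0.10 of each other, and the highest was above 98.4% of all peaks. LEO1 also had 4 peaks, at -1.18, 1.34, 5.10 and 9.81 in the authors' deposited table. It was the only subunit with peaks of both signs, and its lowest peak had 6.18% of all peaks below it.

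RTF1 had peaks at 2.15 and 11.02 in the authors' deposited table. Both were positive, and 87.2% of all peaks lay below the higher one. PAF1 had peaks at 1.23 and 7.64 in the authors' deposited table. Both were positive, the lower one among the lowest 21.7% of all peaks.

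CDC73 had a single peak at -0.25 in the authors' deposited table, with 12.3% of all peaks below it. It was the only subunit with no positive peak and the only one that did not reach 1 in size. By span on the genome, CDC73 is also the longest of the 5 genes (132.8 kb), while PAF1, the shortest (5.5 kb), had 2 peaks. The libraries were made from mRNA, and mRNA lengths were not analysed here. Across all PLC/PRF/5 genes, 60.5% had 1 peak, 23.3% had 2 and 7.74% had 4 or more.

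The peaks of a subunit spread over much of the column. The span from lowest to highest peak was 10.99 for LEO1 and 9.18 for CTR9 on the log2 scale, against a median span of 9.29 over the 204 genes with 4 peaks. The span was 8.86 for RTF1 and 6.41 for PAF1, against a median of 4.35 over the 1274 genes with 2 peaks, with quartiles of 1.96 and 7.51. Peaks of 1 gene share its RNA and the same libraries, and where they lie on the transcript was not analysed here.

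The PLC/PRF/5 column ran from -2.12 to 12.999 and was filled evenly where the subunit peaks lay. For all 13 peaks, the share of peaks below and the place between the ends of the range, both in percent, differed by at most 0.48 percentage points. A peak at 12.74, such as the highest of CTR9, was therefore no rarer in the column than one near 0. Whether the PLC/PRF/5 values measure a change at the gene beside them was not tested, and this limit holds for every size, span and sign given for that line. The 5 HUH7 values lay on the flanks of a column that rose steeply around 0.

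**Figure D2:**
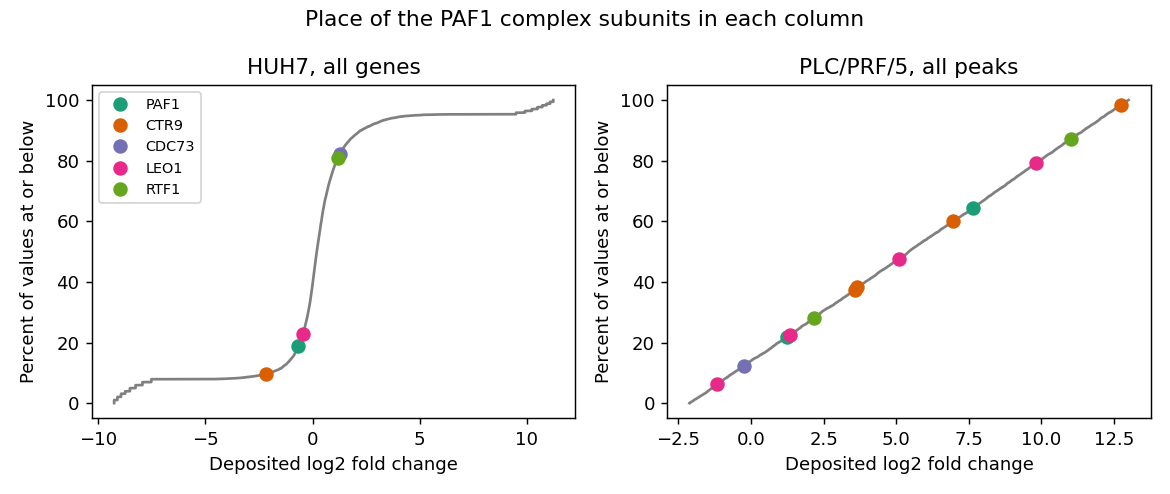
Cumulative share of values (y axis, percent at or below) against the deposited log2 fold change (x axis) for all 10447 genes of HUH7 (left) and all 9516 peaks of PLC/PRF/5 (right), with the PAF1 complex subunits as coloured points. The HUH7 curve is steep around 0 with steps at both ends, where many genes share a value, while the PLC/PRF/5 curve is close to a straight line from -2.12 to 12.999.

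Signs were then set side by side for each subunit, which assumes that both columns run in the same direction; this is not stated. The 2 cell lines share no library. CTR9 and PAF1 were negative in HUH7, and all of their PLC/PRF/5 peaks were positive. Of the 1613 genes of both lines that were negative in HUH7, 77.1% likewise had only positive PLC/PRF/5 peaks. CDC73 was positive in HUH7 and negative in its 1 PLC/PRF/5 peak. Of the 2250 genes positive in HUH7, 8.13% had only negative peaks, whatever their number of peaks. Of all 9516 PLC/PRF/5 peaks, from genes with any number of peaks, 14.0% were negative.

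RTF1 was the 1 subunit positive throughout, in HUH7 and in both PLC/PRF/5 peaks, and 76.7% of genes positive in HUH7 had only positive peaks. LEO1, negative in HUH7, had 1 negative and 3 positive peaks. In all, 3 of the 5 subunits had a HUH7 sign opposite to every PLC/PRF/5 peak, against 36.9% of the 3866 genes of both lines, and 1 had the same sign in every peak, against 47.9%. With the median of each column subtracted, 1 subunit (CDC73) was opposite in every peak, against 35.5% of these genes. Then 0 had the same sign in every peak, against 35.8%, and the other 4 had peaks of both signs. None of these shares was matched for the number of peaks, on which an every-peak count depends. CDC73 had 1 peak and so could not show both signs, while the other 4 subunits had 2 to 4 peaks. Of all PLC/PRF/5 genes, 60.5% had 1 peak. All 5 subunits were listed in both lines, as was known when they were chosen, and the further subunit SKIC8 was listed in neither. Of all HUH7 genes, 37.0% were also listed in PLC/PRF/5.

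SKIC8 was listed in neither line, under its current name or any of its 3 older names. An unlisted gene may have had no peak, or may have been left out by a filter, and neither was analysed here. Older names of the 5 subunits added no further entry. The name PAF1 is also an older alias of the peroxisomal gene PEX2, which had 1 entry of its own under its current name.

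The subunit genes overlap other genes, and whether the libraries keep the strand is not stated. PAF1 shares 5136 bp of its 5478 bp with SAMD4B on the plus strand, whose HUH7 value was 0.41 in the authors' deposited table, opposite in sign to PAF1. SAMD4B had no PLC/PRF/5 peak. B3GALT2 overlaps CDC73 by 7884 bp, and it was listed in neither line. The noncoding genes that overlap LEO1, RTF1 and CDC73 were not listed either.

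Genes of the steps that PAF1C acts on were taken from lists and are set beside the 36.9% of all HUH7 genes that reached 1 in size. For H2B ubiquitination, 7 of 8 genes were listed, 3 positive and 4 negative, with a median of -0.18, and 2 reached 1 in size. RNF20 and RNF40 form the ubiquitin ligase that works with PAF1C, and their HUH7 values were 0.01 and 0.29 in the authors' deposited table. Its partner WAC was at 0.38 and the deubiquitinating module genes USP22 and ATXN7L3 were at -0.18 and -0.35 in the authors' deposited table. The 2 genes of this list past 1 in size were the ubiquitin-conjugating enzyme gene UBE2A (-9.27) and the deubiquitinating module gene ENY2 (-9.11) in the authors' deposited table. Both are repeated values, the first held by 104 genes and the second by 108.

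Genes of histone H3 methylation had 5 positive and 7 negative members, all 12 listed, with a median of -0.04. CXXC1, a subunit of the SETD1 complexes, was highest at 2.03 and menin (MEN1) followed at 1.17 in the authors' deposited table. SETD1B (-0.58) and DPY30 (-0.36) were the lowest unrepeated values in the authors' deposited table. The H3K36 methyltransferase gene SETD2 held a repeated value, -8.75, in the authors' deposited table, shared by 85 genes. In all, 3 of the 12 reached 1 in size.

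Factors that control elongation by the polymerase had 7 positive and 2 negative values among 9 listed of 12, with a median of 0.36. NELFCD (1.09) and NELFA (0.66), subunits of the negative elongation factor, were highest, and IWS1 (-0.21) and the FACT subunit SUPT16H (-0.07) lowest in the authors' deposited table. Only NELFCD of the 9 reached 1. Elongation kinases and super elongation complex genes had 9 positive and 5 negative values among 14 listed of 15, with a median of 0.26, and 4 reached 1 in size. LARP7, a subunit of the 7SK particle that holds P-TEFb inactive, was at 2.36 and the elongation factor gene ELL2 at 1.25 in the authors' deposited table. CCNT1 (-1.08), a cyclin of P-TEFb, and CDK13 (-0.49) were the lowest unrepeated values in the authors' deposited table, and CCNT2 held the same repeated value as ENY2.

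RNA polymerase II subunits had 4 positive and 5 negative values among 9 listed of 12, with a median of -0.15. POLR2C, at -2.18 in the authors' deposited table, was the only one past 1 in size. POLR2J (-0.69) was the next lowest, and POLR2E (0.85) and POLR2D (0.60) were highest in the authors' deposited table. Of the cleavage stimulation factor, CSTF1 (0.25) and the paralogue CSTF2T (0.39) were listed in HUH7 in the authors' deposited table, and neither reached 1. CSTF2 itself was not listed in HUH7, so the column gives no check of the knockout there.

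**Figure D3:**
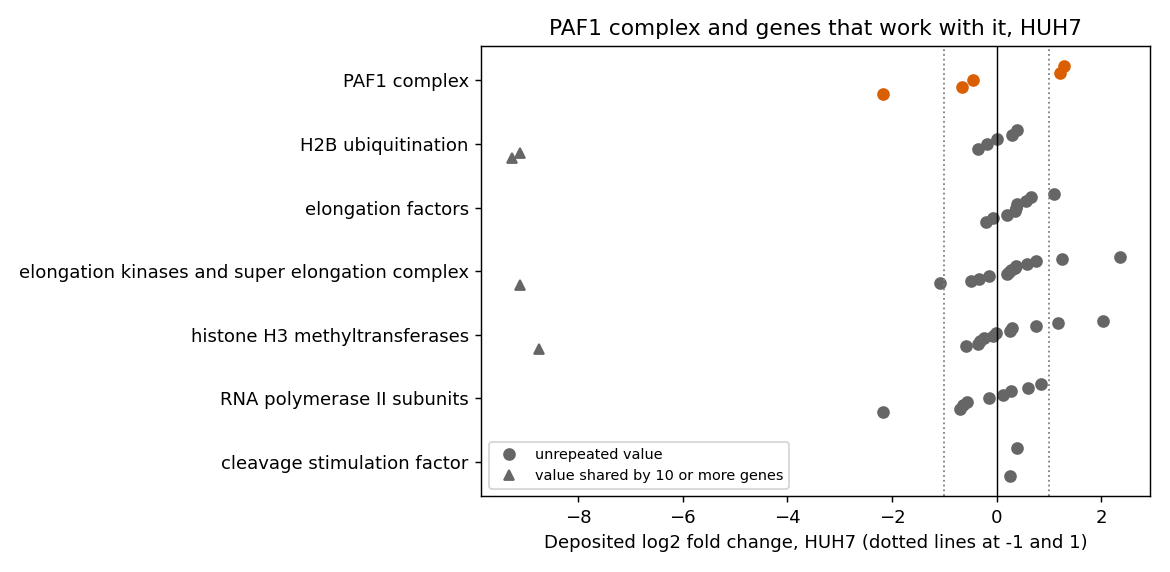
Deposited HUH7 log2 fold change (x axis) of the PAF1 complex subunits (orange) and of 6 lists of genes that work with them (grey), 1 symbol per listed gene, with small vertical offsets for legibility and triangles for values shared by 10 or more genes. CTR9 and POLR2C lie near -2.2, and the 4 triangles lie between -9.27 and -8.75.

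In PLC/PRF/5 these lists were mostly positive, as was the column. H2B ubiquitination had 9 positive and 0 negative peaks, H3 methylation 16 and 0, elongation factors 15 and 3, and elongation kinases 23 and 3. The polymerase subunits had 2 and 1, and the cleavage stimulation factor 3 and 1, the negative one being CSTF2 itself at -0.50 in the authors' deposited table. The 4 peaks of the ligase partner WAC ran from 1.19 to 6.09 in the authors' deposited table. The 4 peaks of CDK13, 2 of them below 0, ran from -0.79 to 1.95 in the authors' deposited table. The single POLR2C peak was at 5.89 in the authors' deposited table, so this gene, like CTR9, was negative in HUH7 and positive in PLC/PRF/5. The same held for 77.1% of the 1613 genes of both lines that were negative in HUH7.

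The genes closest to each subunit by HUH7 value, among genes of both lines, were named by the smallest absolute difference over this 1 comparison. For CTR9 these were WDR44 (-2.18) and ATPAF1 (-2.17), and for PAF1 they were ZFP69B (-0.67) and ZC3HAV1 (-0.66), in the authors' deposited table. For LEO1 they were MOCS3 (-0.45) and PPP2R5E (-0.45), for RTF1 TIMMDC1 (1.20) and JMY (1.20), and for CDC73 DESI2 (1.28) and CD2AP (1.28), in the authors' deposited table. Their PLC/PRF/5 peaks were not alike: WDR44 had 3 peaks from 4.65 to 10.02, while ATPAF1 had 1 at -1.95 in the authors' deposited table. DESI2 had 1 peak at -1.89, negative like that of CDC73, while the 5 peaks of CD2AP ran from 6.01 to 9.47 in the authors' deposited table.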

How the data were processed

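mRNA was taken up on oligo(dT) beads from Trizol extracts, cut to about 100 bp, immunoprecipitated with an m6A antibody and copied from random hexamers, per the labels' protocols. FastQC 0.12.0 and build hg38 appear in the submitters' processing notes. For the aligner, peak caller, differential test, centring and filters, the sources used here give nothing. The authors deposited log2 fold changes, with headers that give the cell line and the kind of value but no unit. They were read as 1 per gene in HUH7, where no gene name recurred, and as 1 per peak in PLC/PRF/5, where names recurred. Read counts, p-values and peak positions were not analysed here, so the planned count test was not run.

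The members, gene lists and limits were chosen with earlier results of these data known. Values were read with Python 3.11.15 and pandas 2.3.3, ranked within each column and counted past an absolute log2 fold change of 1. Repeated HUH7 values are those above 1 in size that 10 or more genes hold, compared at 6 decimals. The share below a value counts strictly lower values of the same column. Ranking and the search for repeated values were tested on simulated data. Genes named were the subunits, the 2 genes nearest each subunit, and the 2 highest and 2 lowest unrepeated HUH7 values of each list. The hepatocyte and liver tumour list was an exception: only TTR and AFP, listed in neither line, were named from it. RNF20, SAMD4B, CSTF2 and the repeated values UBE2A, ENY2, SETD2 and CCNT2 were chosen after their values were seen. PEX2 was named for the shared alias and B3GALT2 for its overlap with CDC73. 1 gene of the elongation kinase list is not reported here and was left out of its counts. Overlaps, older names and positions came from RefSeq (GRCh38.p14). Alternatives were other limits, other summaries of peaks, other sets of genes to rank in, older names, and, chosen after seeing the data, subtraction of the column median.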

Additional observations from a re-analysis of the deposited data

Results flagged for a closer look

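For 3 subunits the HUH7 value was opposite in sign to every PLC/PRF/5 peak in the authors' deposited table, against 36.9% of the 3866 genes of both lines, and the difference between the lines was not tested. CTR9 had -2.17 in HUH7 and 4 positive peaks from 3.57 to 12.74 in PLC/PRF/5. PAF1 had -0.67 in HUH7 and positive peaks at 1.23 and 7.64 in PLC/PRF/5. Of genes negative in HUH7, as these 2 are, 77.1% had only positive PLC/PRF/5 peaks. CDC73 had 1.28 in HUH7 and 1 peak at -0.25 in PLC/PRF/5. With the median of its column subtracted from each value, CDC73 was at 1.08 in HUH7 and -5.68 in PLC/PRF/5, while CTR9 was at -2.37 in HUH7 and had PLC/PRF/5 peaks from -1.87 to 7.31. PAF1 was then at -0.86 in HUH7 and had PLC/PRF/5 peaks at -4.20 and 2.21. Of the 3, CDC73 alone remained opposite in every peak, but it had only 1 peak, while PAF1 had 2 and CTR9 had 4. The shares above were not matched for the number of peaks.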

How the results depend on the processing

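No paired analysis was possible because each group held 1 library and the files give comparisons only. At a limit of 2, 1 subunit in place of 3 was counted in HUH7; at 0.5 it was 4. With the column median subtracted, 5 in place of 11 PLC/PRF/5 peaks were positive, 1 in place of 3 subunits was opposite in sign in every peak, 0 in place of 1 had the same sign in every peak, and the HUH7 signs and the count of 3 stayed as they were. By the peak of largest absolute value in place of the median, the PLC/PRF/5 gene value was 7.64 against 4.44 for PAF1, 12.74 against 5.31 for CTR9, 9.81 against 3.22 for LEO1 and 11.02 against 6.59 for RTF1. By the mean of the peaks it was 6.73 for CTR9 and 3.77 for LEO1. Among genes with unrepeated values the HUH7 percentile was 1.96 for CTR9, 12.5 for PAF1, 17.1 for LEO1, 83.7 for RTF1 and 84.9 for CDC73. Among genes of both lines it was 7.76 for CTR9, 16.9 for PAF1, 21.5 for LEO1, 85.8 for RTF1 and 86.7 for CDC73. The other alternatives run left the counts within 1.5 times, and older names left 18 entries; adding SKIC8 gave no value, since it was not listed. Depth is unknown, so its limits cannot be stated.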

Other observations

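The 2 columns differed in how they were laid out, and whether the PLC/PRF/5 values are fold changes of the genes beside them was not tested. Of neighbouring entries whose genes both have a chromosome in RefSeq, 99.6% lay on 1 chromosome in HUH7 (9834 pairs) and 5.80% in PLC/PRF/5 (8187 pairs). The 4 CTR9 peaks of PLC/PRF/5 were scattered over the table, the first on line 371 and the last on line 8496. Values had up to 9 decimals in HUH7 and up to 5 in PLC/PRF/5. HUH7 held 9142 distinct values among 10447 genes, and PLC/PRF/5 held 9483 among 9516 peaks.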
